A study of Mus musculus with 6 samples.

Results

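Epidermal growth factor (EGF)-like ligands, their receptors and the receptor inhibitor Errfi1 were followed in mouse cumulus-oocyte complexes, the oocytes with the granulosa-derived cumulus cells around them. The genes were taken by name, as probe sets whose only gene symbol on the platform was Ereg, Btc, Epgn, Hbegf, Tgfa, Egfr, Erbb2, Erbb3 or Errfi1. These 9 genes had 21 probe sets, of 18193 genes with 34945 singly named probe sets in all. Of the 21, 19 passed the filter on dim values, and each of the 9 genes had at least 1 of them. The study comprised 3 groups of 2 Affymetrix arrays, each array hybridised with cRNA of pooled complexes from wild type immature females. Every group had been primed for 48 h with equine chorionic gonadotropin (eCG), a hormone that drives follicle growth. The groups were complexes with no further hormone (no hCG), complexes 8 h after human chorionic gonadotropin (hCG), which acts as the ovulatory luteinizing hormone signal, and complexes 16 h after hCG. The labels place the complexes with no hCG in ovaries and call them expanded, and place both later groups in the oviduct, so by the labels the site of collection moved with the hormone and cannot be told apart from it. The label of the 8 h group is uncertain, because mouse complexes usually reach the oviduct later than that. How many animals went into a pool was not given in the sources used here, and nothing says that the arrays of a group came from separate animals. The p-values therefore reflect the scatter of these arrays alone, which may be technical.

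The ovulatory hormone acts first on the outer granulosa cells of the follicle, and EGF-like ligands carry its signal inward to the cumulus. The ligands are made as membrane proteins, are cut loose by metalloproteases and bind EGFR, a receptor tyrosine kinase that pairs with itself or with its relatives ERBB2 and ERBB3. In the cumulus this signal runs through the ERK kinases and is known to start both expansion of the cumulus and resumption of oocyte meiosis. Errfi1 (also called Mig6) encodes a protein that receptor signalling induces and that in turn binds and blocks the EGFR kinase.

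Values are log2 intensities as deposited, from 3.32 to 15.5 over all probe sets, and array medians lay within 0.125 of each other. A probe set whose mean over the 6 arrays lay under 5.62, the 40th percentile, was called dim and was not tested. Changes are differences of log2 group means ± SE from limma fitted over 27022 probe sets and all 6 arrays, with 2 arrays in each group, and a change was called at a Benjamini-Hochberg adjusted p under 0.05. A gene with more than 1 probe set was represented by its brightest over all arrays, and the others are given beside it. All 9 granulosa and 11 oocyte markers with a probe set passed the dim filter, and most of them fell after hCG. Over all probe sets tested, 17.5% fell at 8 h against no hCG and 18.3% at 16 h against no hCG. Of the 9 granulosa markers 6 fell and 0 rose at 8 h against no hCG, and 8 fell at 16 h against no hCG. Among them Fshr, the follicle-stimulating hormone receptor gene, fell (−3.54 ± 0.15) at 16 h against no hCG, while Inha, the inhibin alpha gene, averaged 14.27, 14.40 and 13.57 with no hCG, at 8 h and at 16 h, and Gdf9, an oocyte growth factor gene, 13.24, 11.32 and 12.49. Of 11 oocyte markers, 11 fell at 8 h against no hCG and 11 at 16 h against no hCG. At 16 h against 8 h they split, with 4 up, among them Gdf9, 4 down and 3 not called. Zp2, among those that fell further, averaged 12.37 with no hCG, 9.66 at 8 h and 7.49 at 16 h. Of 8 leukocyte markers 7 rose at 16 h against 8 h, and of 4 oviduct epithelium markers 3 rose, where 9.76% of all probe sets rose and 8.45% fell. Of 6 theca and stroma markers 3 fell and 0 rose at 8 h against no hCG, and 4 fell and 1 rose at 16 h against no hCG. Of 2 tested endothelial markers 1, Cdh5, rose at 8 h against no hCG (2.86 ± 0.25). In pooled tissue, fewer cells of a type and less RNA per cell cannot be told apart.

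Epiregulin, betacellulin and epigen transcripts rose steeply by 8 h after hCG. Ereg encodes epiregulin, one of the ligands that carry the ovulatory signal. Its values were 4.72 and 4.53 with no hCG, 10.52 and 10.57 at 8 h, and 9.81 and 9.87 at 16 h. Both arrays with no hCG lay below the limit for dim probe sets, and no group overlapped another. The change at 8 h against no hCG was 5.93 ± 0.15, or 60.9-fold (95% confidence interval of the log2 change 5.59 to 6.27; limma, adjusted p = 5.65e-08). With no hCG the signal was dim and its distance from background is unknown, so the size of that change is imprecise. Ereg was lower at 16 h than at 8 h by 0.71 ± 0.15 on the log2 scale (adjusted p = 0.0102), and still 5.22 ± 0.15 above no hCG (37.2-fold). The step down from 8 h was small beside the rise, and it was no longer called when any of the 4 arrays of these later groups was left out, with adjusted p between 0.0543 and 0.0851.

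Btc, which encodes betacellulin, a ligand of both EGFR and ERBB4, had 2 probe sets. On the brighter one, 1435541_at, its values were 6.15 and 6.81 with no hCG, 11.29 and 11.33 at 8 h, and 10.77 and 10.67 at 16 h. The arrays at 8 h were the highest and those with no hCG the lowest, without overlap. The change was 4.83 ± 0.21 at 8 h against no hCG (28.4-fold, adjusted p = 5.97e-07) and 4.24 ± 0.21 at 16 h against no hCG (18.9-fold, adjusted p = 6.47e-07). Between 16 h and 8 h the brighter probe set differed by −0.59 ± 0.21 and was not called (−1.06 to −0.11, adjusted p = 0.0908). The dimmer one, 1421161_at, which lay under the dim limit with no hCG, fell over that interval (−1.43 ± 0.22, adjusted p = 0.00164), with 6.80 and 6.12 at 16 h, against 7.78 and 8.01 at 8 h. The call on the brighter probe set was made without either array with no hCG (adjusted p = 0.0141 in each case).

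Epgn, which encodes epigen, an EGFR ligand of low affinity, had 1 probe set. Its values were 6.0 and 5.54 with no hCG, 10.43 and 9.53 at 8 h, and 7.61 and 7.34 at 16 h. The groups did not overlap, and the arrays at 8 h lay farther apart from each other than those of any other group for this gene. Epgn rose by 4.21 ± 0.28 at 8 h against no hCG (18.5-fold, adjusted p = 4.61e-06). Replicate 2 with no hCG lay under the dim limit, so the size of that rise is imprecise. It then fell at 16 h against 8 h (−2.50 ± 0.28, 5.67-fold lower, adjusted p = 0.00027), and stayed above no hCG by 1.71 ± 0.28 (3.26-fold, adjusted p = 0.00103). Over the interval from 8 h to 16 h the log2 confidence interval of Epgn, −3.13 to −1.87, lay wholly below those of Ereg, −1.05 to −0.37, and of the brighter Btc probe set, −1.06 to −0.11, but overlapped that of the dimmer Btc probe set, −1.92 to −0.93. The difference between the genes was not tested.

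**Figure D1:**
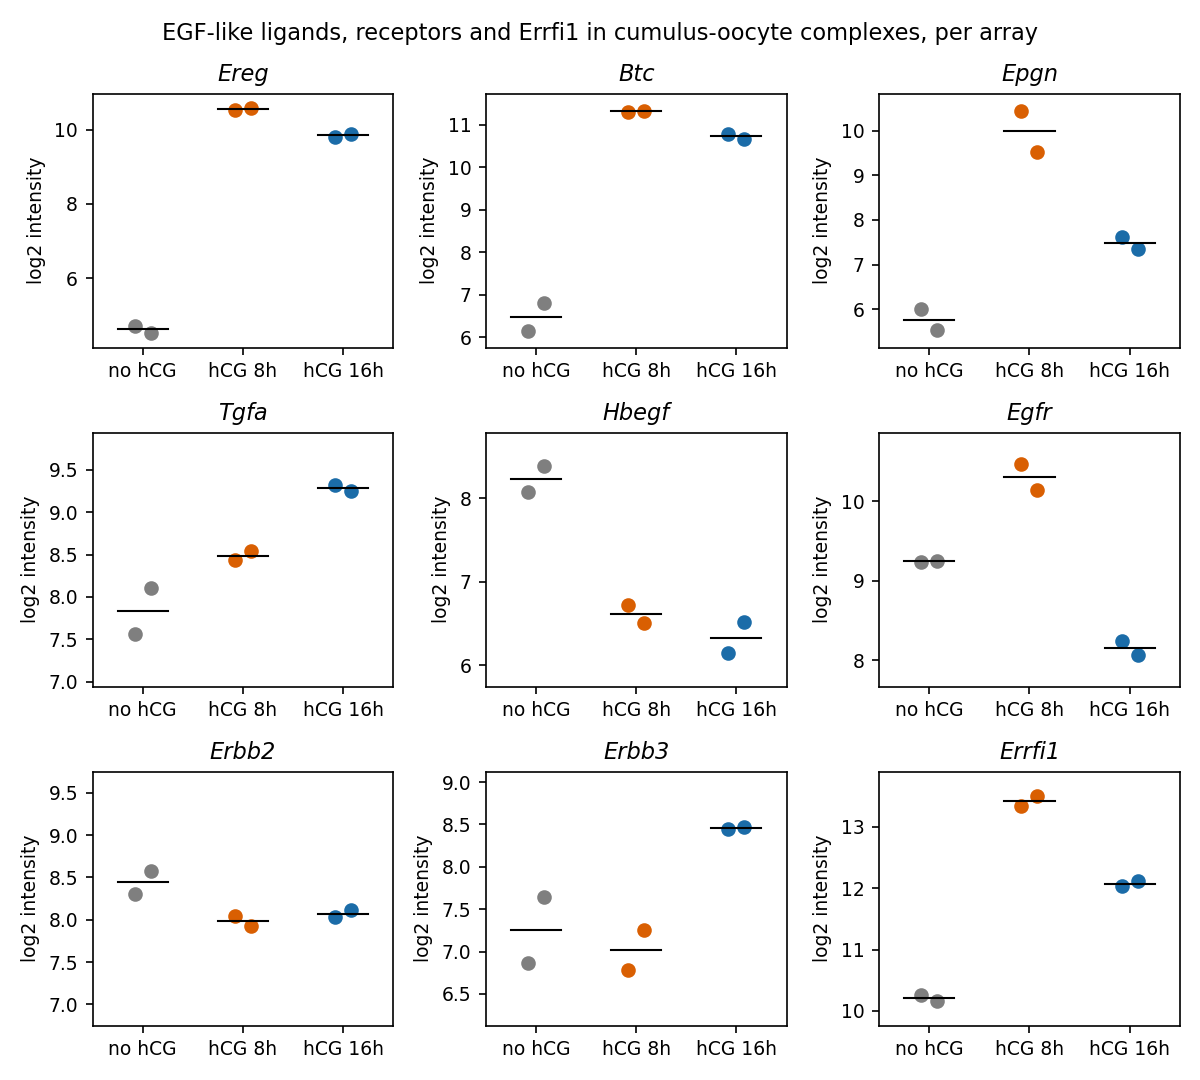
Log2 intensity (vertical axes, a scale of its own in each panel) of each gene's brightest probe set on every array; points are arrays, bars group means, n = 2 per group. Ereg, Btc, Epgn and Errfi1 stand highest at 8 h and remain above no hCG at 16 h, Tgfa and Erbb3 stand highest at 16 h, and Hbegf is highest with no hCG.

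The other 2 ligands differed from these and from each other. Tgfa encodes transforming growth factor alpha, an EGFR ligand made by many epithelial cells. On its brightest probe set, 1421943_at, it read 7.56 and 8.11 with no hCG, 8.43 and 8.54 at 8 h, and 9.32 and 9.25 at 16 h. Levels stepped up at each time, and the groups did not overlap. Tgfa rose by 0.65 ± 0.20 at 8 h against no hCG (adjusted p = 0.0291), by 0.81 ± 0.20 at 16 h against 8 h (adjusted p = 0.0186) and by 1.45 ± 0.20 at 16 h against no hCG (2.74-fold, adjusted p = 0.000291). The probe sets of Tgfa disagreed. Neither 1421942_s_at, with changes of −0.19, −0.21 and −0.40 in the same order, nor 1450421_at, with 0.23, −0.16 and 0.07, was called in any comparison. With the mean of all 3 probe sets Tgfa was called in no comparison, and its change at 16 h against no hCG was 0.37 (adjusted p = 0.0629). The call at 8 h was also lost when either 8 h array (adjusted p = 0.0875 without replicate 1 and 0.153 without replicate 2), replicate 1 with no hCG (0.155) or either 16 h array (0.0581) was left out. The call at 16 h against 8 h was lost when any of the 4 arrays compared was left out, with adjusted p between 0.0719 and 0.125.

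Hbegf encodes heparin-binding EGF-like growth factor, a ligand of EGFR and ERBB4 that is also active while still anchored in the membrane. It was the ligand with its highest level before the ovulatory hormone, at 8.08 and 8.39 with no hCG, 6.72 and 6.5 at 8 h, and 6.14 and 6.52 at 16 h. The arrays with no hCG stood apart from the other 4, while the later groups overlapped. Hbegf fell at 8 h against no hCG (−1.63 ± 0.19, 3.09-fold lower, adjusted p = 0.000136) and was 1.91 ± 0.19 lower at 16 h than with no hCG (adjusted p = 4.14e-05). Its change at 16 h against 8 h was −0.28 ± 0.19, not called, with an interval of −0.71 to 0.15. The second probe set, 1418350_at, gave −1.65 ± 0.23 at 8 h against no hCG and −1.69 ± 0.23 at 16 h against no hCG, both called.

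Errfi1, the feedback inhibitor, had values of 10.26 and 10.16 with no hCG, 13.33 and 13.50 at 8 h, and 12.03 and 12.11 at 16 h. The 3 groups were far apart beside the spread within each. Errfi1 rose by 3.21 ± 0.15 at 8 h against no hCG (9.23-fold, adjusted p = 7.86e-07). It fell at 16 h against 8 h (−1.35 ± 0.15, 2.55-fold lower, adjusted p = 0.000284) and was 1.86 ± 0.15 above no hCG at 16 h (3.63-fold, adjusted p = 1.2e-05). Its second probe set, 1419816_s_at, ran in parallel, with 2.80 ± 0.16, −1.52 ± 0.16 and 1.27 ± 0.16, each called.

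Egfr encodes the receptor of all 5 ligands, and its brightest probe set was higher at 8 h, and lower at 16 h, than with no hCG. On that probe set, 1424932_at, it read 9.24 and 9.25 with no hCG, 10.46 and 10.14 at 8 h, and 8.24 and 8.07 at 16 h. The 8 h arrays were the highest and the 16 h arrays the lowest. Egfr rose by 1.06 ± 0.17 at 8 h against no hCG (2.08-fold, adjusted p = 0.000908) and fell at 16 h against 8 h (−2.15 ± 0.17, 4.43-fold lower, adjusted p = 3.29e-05). It ended below no hCG (−1.09 ± 0.17, adjusted p = 0.000656), whereas Ereg and Btc were still well above no hCG at that time.

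Only some of the 7 Egfr probe sets showed this course. Probe set 1435888_at had 8.14 and 8.30 with no hCG, 10.04 and 10.13 at 8 h, and 7.83 and 7.79 at 16 h. It rose by 1.86 ± 0.15 at 8 h against no hCG and fell by 2.28 at 16 h against 8 h, and its change at 16 h against no hCG, −0.42 ± 0.15, was not called (adjusted p = 0.0562). Probe set 1451530_at rose by 0.62 ± 0.17 at 8 h, fell by 1.44 from there to 16 h and was lower at 16 h than with no hCG (−0.82 ± 0.17). Probe set 1460420_a_at, the second brightest, moved less, at 8.61 and 8.83 with no hCG, 8.99 and 9.15 at 8 h, and 8.66 and 8.92 at 16 h. Its changes of 0.35 ± 0.17, −0.28 ± 0.17 and 0.07 ± 0.17 were not called, though both 8 h arrays lay above the other 4. Neither 1432647_at nor 1454313_at was called in any comparison, with changes between −0.10 and 0.05, and 1457563_at was dim, at 4.06 to 4.51. With the mean of its tested probe sets Egfr kept each call, at 0.64, −1.03 and −0.39 (adjusted p = 0.0327 for the last). Which transcripts of Egfr each probe set reads was not given in the sources used here.

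**Figure D2:**
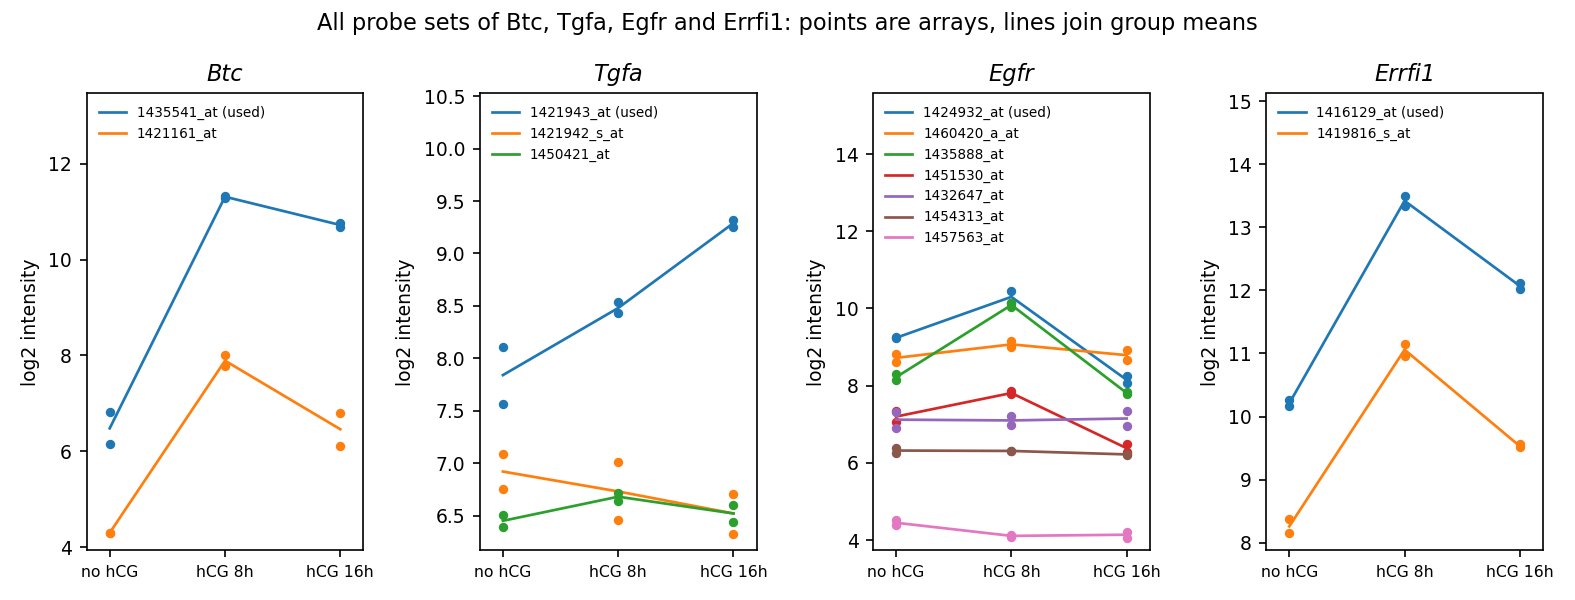
Log2 intensity of every probe set of Btc, Tgfa, Egfr and Errfi1 with no hCG, at 8 h and at 16 h; points are single arrays and lines join group means (n = 2). For Btc and Errfi1 both probe sets peak at 8 h, for Tgfa the rise is seen on 1421943_at and not on the other 2, and for Egfr 3 of 7 probe sets were called higher at 8 h, 1460420_a_at stands slightly higher at 8 h without being called, and the other 3 show no peak.

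Of the partner receptors, Erbb2, which binds no ligand of its own and pairs with the others, read 8.31 and 8.57 with no hCG, 8.04 and 7.93 at 8 h, and 8.03 and 8.11 at 16 h. The arrays with no hCG were the highest, by a small margin. The changes were −0.46 ± 0.16 at 8 h against no hCG (−0.81 to −0.10, adjusted p = 0.0523), 0.09 ± 0.16 at 16 h against 8 h and −0.37 ± 0.16 at 16 h against no hCG (adjusted p = 0.103), and none was called. The first of them was called in 5 of 15 alternatives, among them the one without replicate 1 with no hCG (adjusted p = 0.031). Its adjusted p ran from 0.029 to 0.265 over all of them.

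Erbb3, a neuregulin receptor with a weak kinase that signals through its partner, changed late. On probe set 1434606_at its values were 6.86 and 7.64 with no hCG, 6.78 and 7.26 at 8 h, and 8.45 and 8.47 at 16 h. The first 2 groups overlapped, and both 16 h arrays lay above all others. Erbb3 rose by 1.44 ± 0.26 at 16 h against 8 h (2.71-fold, adjusted p = 0.00377) and by 1.21 ± 0.26 at 16 h against no hCG (2.31-fold, adjusted p = 0.00446). At 8 h against no hCG the change was −0.23 ± 0.26 and was not called (−0.81 to 0.34), and its other probe set, 1452482_at, was dim at 5.21 to 5.35. Some markers of other cells also rose at 16 h. Of 4 tested oviduct epithelium markers, 3 rose at 16 h against 8 h and 2 at 16 h against no hCG. In the latter Epcam (−0.29 ± 0.22) and Cdh1 (−0.22 ± 0.20) were not called. Of 8 tested leukocyte markers, 7 rose in each of these comparisons, where 9.76% and 19.0% of all probe sets rose. The oviduct glycoprotein gene Ovgp1 read 7.90 and 9.58 with no hCG, 7.30 and 8.46 at 8 h, and 11.95 and 11.52 at 16 h. The summed log2 level of 6 oviduct epithelium markers was 45.7 to 46.7 with no hCG, 42.0 to 42.6 at 8 h and 50.1 to 50.9 at 16 h, and 2 of the 6, one of them the cilia regulator gene Foxj1, were dim. That of 9 leukocyte markers was 55.4 to 57.7, 56.5 to 58.2 and 72.1 to 73.0, with 1 of the 9 dim. Ovgp1 rose by 3.85 ± 0.50 at 16 h against 8 h. The pan-leukocyte gene Ptprc averaged 7.81 at 16 h, against 5.22 at 8 h, a level under the dim limit. The part of these cells in the levels of Erbb3 and Tgfa at 16 h was not tested.

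Of the 9 genes, 6 rose at 8 h against no hCG (Ereg, Btc, Epgn, Tgfa, Egfr and Errfi1), 1 fell (Hbegf) and 2 were not called. In that comparison 33.9% of all probe sets tested were called, 16.4% upward and 17.5% downward. The median change of the 9 was 1.06, beside −0.02 over 13559 genes. At 16 h against 8 h, 2 rose (Tgfa and Erbb3), 4 fell (Ereg, Epgn, Egfr and Errfi1) and 3 were not called, where 18.2% of probe sets were called, 9.76% upward and 8.45% downward. The median of the 9 was −0.59, beside 0.01 over all genes. At 16 h against no hCG, 6 rose (Ereg, Btc, Epgn, Tgfa, Erbb3 and Errfi1), 2 fell (Hbegf and Egfr) and 1 was not called, where 37.3% were called, 19.0% upward and 18.3% downward. Their median was 1.45, beside −0.02 over all genes. The genes were chosen with results of these data known, so these counts are a description, and the comparisons share arrays. The percentages are over probe sets, while each member was counted on 1 probe set. Counted by gene, with 1 probe set each, 2292 of 13559 genes rose and 2777 fell at 8 h against no hCG. At 16 h against 8 h 1598 genes rose and 1236 fell, and at 16 h against no hCG 2825 rose and 2818 fell. The summed log2 level of the oocyte markers was 128.5 to 131.0 with no hCG, 103.4 to 105.0 at 8 h and 101.2 to 105.0 at 16 h, and that of 9 granulosa markers 110.7 to 111.1, 100.9 to 101.9 and 95.7 to 96.7. Between 8 h and 16 h single oocyte markers went both ways, 4 up and 4 down, which the sum does not show. The part of the oocyte share in the members' changes was not tested.

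**Figure D3:**
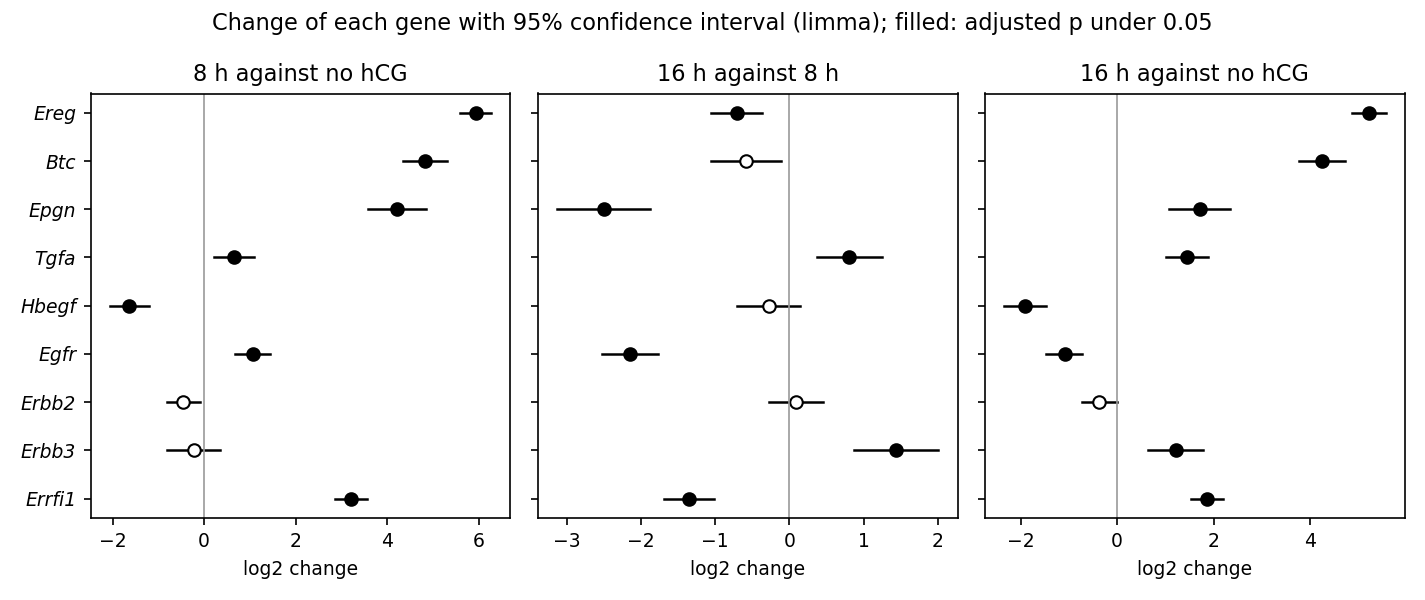
Log2 change (horizontal axes, a range of its own in each panel) of each gene's brightest probe set in the 3 comparisons; bars are 95% confidence intervals of the limma fit with 2 arrays per group, and filled points have an adjusted p under 0.05. Ereg, Btc, Epgn and Errfi1 lie far to the right at 8 h against no hCG. The sizes for Ereg and Epgn are imprecise there, because both arrays with no hCG for Ereg and replicate 2 for Epgn were dim. Epgn and Egfr lie farthest to the left at 16 h against 8 h, at −2.50 and −2.15.

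Promoter windows were searched for the cAMP response element (CRE) and other motifs, since cAMP, which the hormone raises in granulosa cells, can act through it. RefSeq windows from 250 bases before to 50 bases after the start on build GRCm38.p6 were used for 6 of the 9 genes, 7 windows in all because Errfi1 has 2. Windows of Ereg, Hbegf and Erbb3 were not used here. Of the genes that rose at 8 h, the windows of Errfi1, Epgn and Btc are printed because they hold the CRE or its half-site, and those of Tgfa and Egfr, which hold neither, are not printed. The windows below are written 5′ to 3′ on the strand of the gene, with capitals for the CRE half-site TGACG on either strand and for the TATA box TATAAA. Errfi1 is at chr4:150854820-150855119 on the plus strand, Epgn at chr5:91027267-91027566 on the plus strand and Btc at chr5:91402945-91403244 on the minus strand.
Errfi1: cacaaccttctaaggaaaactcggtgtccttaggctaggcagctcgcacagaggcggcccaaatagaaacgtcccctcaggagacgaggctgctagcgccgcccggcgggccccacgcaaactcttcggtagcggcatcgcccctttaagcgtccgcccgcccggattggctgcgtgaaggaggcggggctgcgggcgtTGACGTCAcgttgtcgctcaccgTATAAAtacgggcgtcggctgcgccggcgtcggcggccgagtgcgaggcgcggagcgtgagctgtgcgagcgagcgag
Epgn: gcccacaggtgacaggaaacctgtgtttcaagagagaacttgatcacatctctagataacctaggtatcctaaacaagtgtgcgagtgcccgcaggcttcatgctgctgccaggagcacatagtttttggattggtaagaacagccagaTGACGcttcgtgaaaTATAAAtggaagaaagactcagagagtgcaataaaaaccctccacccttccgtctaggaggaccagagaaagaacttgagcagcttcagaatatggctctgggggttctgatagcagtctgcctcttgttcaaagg
Btc: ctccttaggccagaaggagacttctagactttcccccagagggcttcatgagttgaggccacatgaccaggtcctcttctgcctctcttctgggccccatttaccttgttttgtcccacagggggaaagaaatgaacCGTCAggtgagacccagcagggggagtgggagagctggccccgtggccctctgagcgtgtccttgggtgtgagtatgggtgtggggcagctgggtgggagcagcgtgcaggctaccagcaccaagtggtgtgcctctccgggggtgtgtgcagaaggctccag

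The Errfi1 window held the full palindromic CRE, TGACGTCA, beginning 51 bases before the start, and a TATA box beginning 28 bases before it. A full CRE was present in 1.79% of 32851 windows of the same length, and in 1 of the 7 windows of these genes. The other Errfi1 window, at chr4:150853546-150853845, held none of the motifs searched. Epgn had a half-site 101 bases before its start and Btc one on the opposite strand 113 bases before. Half-sites were in 4 of the 7 windows and in 20.8% of all windows, which counts those within a full CRE. Erbb2, which was not called at 8 h, had a half-site as well, while the windows of Tgfa and Egfr, which were called up at 8 h, had none. The call of Tgfa rests on its brightest probe set alone. TATAAA was in 2 of the 7 windows and in 13.6% of all, and the GC box GGGCGG was in 3 (Errfi1, Tgfa and Egfr), beside 35.7% of all. The receptor half-site TGTTCT, which progesterone and glucocorticoid receptors share, was in the Epgn window alone and in 19.0% of all. On both strands the AP-1 motif TGANTCA, the Egr motifs GCGGGGGCG and GCGTGGGCG and the C/EBP motif TTGCGCAA were in 0 of the 7 windows, and in 7.81%, 2.91%, 0.612% and 0.183% of all windows.

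Epgn, Ereg and Btc lie in that order close together on chromosome 5 in the RefSeq annotation of GRCm38.p6. Areg lies between Ereg and Btc but had no probe set of its own name, so it was not measured here. Their neighbours were looked at after the members' values were known, as the 5 protein-coding genes on each side and any between, and 6 of these were tested. The gene next to Btc, Parm1, which encodes a mucin-like membrane protein, had a course like that of Ereg and Btc. It read 9.70 and 9.88 with no hCG, 13.14 and 13.07 at 8 h, and 12.24 and 12.32 at 16 h. The arrays at 8 h were again the highest. Parm1 rose by 3.32 ± 0.15 at 8 h against no hCG (adjusted p = 6.91e-07) and fell by 0.83 from there to 16 h (adjusted p = 0.00457), a call lost without replicate 1 at 8 h (0.0523). Mthfd2l, a folate enzyme gene on the other side next to Epgn, rose by 0.65 ± 0.17 at 8 h against no hCG (adjusted p = 0.0148), a call lost without replicate 1 (0.0818) or replicate 2 (0.0817) at 8 h or replicate 1 with no hCG (0.0742). Farther out, the chemokine gene Cxcl1 fell (−1.38 ± 0.21) at 8 h, Cxcl2 rose by 1.75 ± 0.24 at 16 h against 8 h and the ubiquitin ligase gene Rchy1 was called in no comparison. The kinase gene Cdkl2 went the other way from Parm1, at −0.47 ± 0.16 at 8 h against no hCG, not called (adjusted p = 0.0522), with a rise of 1.07 ± 0.16 at 16 h against 8 h (adjusted p = 0.00162). Of the 6 tested neighbours 2 rose and 1 fell at 8 h against no hCG, where 16.4% of probe sets rose and 17.5% fell.

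**Figure D4:**
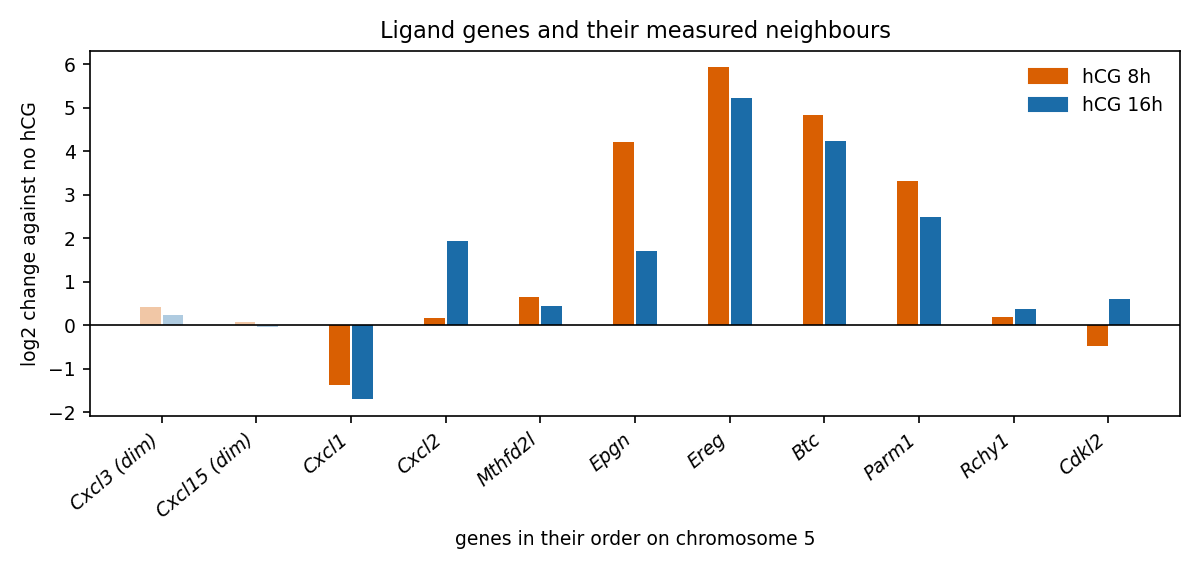
Difference of log2 group means against no hCG (vertical axis) at 8 h and at 16 h for Epgn, Ereg, Btc and their measured neighbours, in their order on chromosome 5 (horizontal axis, not to scale); n = 2 arrays per group, pale bars are dim probe sets. At 8 h the bars of Epgn, Ereg, Btc and Parm1 stand above the rest, with Parm1 at 3.32, and those on either side of them are smaller. At 16 h the bar of Cxcl2, at 1.93, is higher than that of Epgn, at 1.71.

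Among other genes of the EGF family, 6 of 7 listed, all but Areg, had a named probe set and 2 of those were bright enough to test. Egf itself read 6.79 and 6.96 with no hCG, 5.41 and 5.59 at 8 h, and 5.98 and 5.93 at 16 h. Both 8 h arrays were under the dim limit, so the size of the change there is imprecise. Egf fell at 8 h against no hCG (−1.38 ± 0.16, adjusted p = 0.000108) and was below no hCG at 16 h (−0.92 ± 0.16, adjusted p = 0.00119), as Hbegf was. The neuregulin gene Nrg2 was not called in any comparison. Nrg4, a ligand of ERBB4, was dim over the 6 arrays and not tested, with 6.57 and 6.34 with no hCG and 5.0 to 5.27 on the other 4 arrays. Nrg1, Nrg3 and the receptor gene Erbb4 were dim on every array, at 4.60 or less.

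The list of genes that release the ligands from the membrane, or restrain that release, had 8 tested members. At 8 h against no hCG 3 rose and 1 fell, with a median of 0.11, where 16.4% of all probe sets rose and 17.5% fell. Rhbdf2, an inactive rhomboid protein that brings the sheddase ADAM17 to the cell surface, rose by 1.12 ± 0.20 (adjusted p = 0.00198), the metalloprotease gene Adam9 by 0.93 ± 0.15 and Timp3, an inhibitor of ADAM17, by 0.84 ± 0.16. Nrd1, a peptidase that enhances shedding of HB-EGF, fell (−0.58 ± 0.15), a call lost without replicate 1 (adjusted p = 0.127) or replicate 2 (0.0553) of the 8 h group. From 8 h to 16 h, 3 rose and 0 fell, where 9.76% of all probe sets rose and 8.45% fell. The adjusted p was 0.011 for the sheddase gene Adam17 (0.71 ± 0.15), 0.0186 for Rhbdf2 (0.83 ± 0.20) and 0.0195 for Nrd1 (0.61 ± 0.15). Each of these calls was lost without replicate 1 at 16 h (adjusted p of 0.0634, 0.0717 and 0.107 for Adam17, Rhbdf2 and Nrd1), replicate 2 at 16 h (0.0731, 0.145 and 0.0797) or replicate 1 at 8 h (0.13, 0.144 and 0.18), and those of Rhbdf2 and Nrd1 also without replicate 2 at 8 h (0.0518 and 0.0769). Rhbdf2 ended 1.96 ± 0.20 above no hCG at 16 h (3.88-fold, adjusted p = 5.18e-05). In that comparison 4 of the 8 rose and 0 fell, where 19.0% of all probe sets rose and 18.3% fell. Of these 4, Adam9, Rhbdf2 and Timp3 were called under every alternative, and Adam17 (0.47 ± 0.15) was not.

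Of 17 tested genes that damp or traffic the receptors, 4 rose and 1 fell at 8 h against no hCG, with a median of 0.29. That number called, 5 of 17, is no more than the 33.9% of all probe sets called. At 16 h against no hCG 8 rose and 3 fell, with a median of 0.48, where 19.0% of probe sets rose and 18.3% fell. Cblb, a ubiquitin ligase that marks activated EGFR for breakdown, averaged 8.94 with no hCG, 10.65 at 8 h and 10.99 at 16 h, and its change at 16 h against 8 h was not called (0.33 ± 0.15, adjusted p = 0.176), whereas Errfi1 fell. The difference between Cblb and Errfi1 was not tested. It was up by 1.71 ± 0.15 at 8 h (adjusted p = 2.29e-05) and by 2.04 ± 0.15 at 16 h (4.12-fold), both against no hCG. Socs5, which also promotes loss of EGFR, rose by 1.35 ± 0.15 at 8 h and by 1.90 ± 0.15 at 16 h against no hCG. Its relative Socs4 rose by 0.98 ± 0.26 at 8 h, a call lost without replicate 2 at 8 h (adjusted p = 0.113) or replicate 1 with no hCG (0.0635). Lrig1, a membrane protein that restrains ERBB receptors, rose at 16 h against 8 h (1.09 ± 0.17, adjusted p = 0.00197). Sh3kbp1, a partner of Cbl proteins in receptor uptake, fell at 8 h (−1.25 ± 0.15). Grb14, an adaptor that binds receptor kinases, fell late (−1.81 ± 0.18 at 16 h against 8 h, 3.51-fold lower, adjusted p = 0.000149).

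Of the genes that carry the receptor signal, 28 were listed and 21 were measured and tested. At 8 h against no hCG 5 rose and 3 fell, with a median of 0.23, and 8 of 21 is near the 33.9% of all probe sets called. Sos2, an exchange factor that activates Ras, rose by 1.92 ± 0.29, the adaptor gene Grb2 by 1.10 ± 0.16 and the transcription factor gene Stat3 by 0.75 ± 0.16. With the mean of its probe sets Stat3 was not called (0.32, adjusted p = 0.101). Plcg1, phospholipase C gamma, fell (−0.75 ± 0.15), as did the docking protein gene Gab1 (−0.73 ± 0.15) and the ERK-activating kinase gene Map2k1 (−0.46 ± 0.15). The call of Map2k1 (adjusted p = 0.0408) was lost when any single array was left out, with adjusted p between 0.0524 and 0.216, and that of Gab1 without replicate 2 at 8 h (0.0663). Between 16 h and 8 h, 2 rose and 2 fell, where 9.76% of all probe sets rose and 8.45% fell. Pik3r1, a regulatory subunit of phosphatidylinositol 3-kinase, rose by 2.36 ± 0.28 (5.13-fold, adjusted p = 0.000402), and Ksr1, a scaffold of the ERK cascade, fell (−0.96 ± 0.15). On its probe set not prone to cross-hybridisation Ksr1 was not called (−0.30, adjusted p = 0.334). Against no hCG, 7 rose and 4 fell at 16 h, where 19.0% of all probe sets rose and 18.3% fell.

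Over the 4 pathway lists, 18 of 48 tested genes were called at 8 h against no hCG, 12 at 16 h against 8 h and 27 at 16 h against no hCG. Over all probe sets 33.9%, 18.2% and 37.3% were called in the same order, so the number at 8 h is near the overall share. Those shares are over probe sets, while each listed gene was read on 1 probe set. Of the 12, only Lrig1, Grb14 and Pik3r1 were called under every alternative. Against no hCG, 11 of the 18 at 8 h and 13 of the 27 at 16 h were called under every alternative. The number called at 16 h against 8 h was 4 or 5 when an array of these 2 groups was left out: 4 without replicate 1 at 16 h, 5 without replicate 2 at 16 h, 4 without replicate 1 at 8 h and 5 without replicate 2 at 8 h.

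The genes with the profile most like that of each member were taken as those with the smallest root mean square difference of log2 values over the 6 arrays, each profile centred on its own mean, among 12894 genes. For Ereg they were the leptin receptor gene Lepr, at a difference of 0.17, and the matrix pentraxin gene Ptx3, at 0.28. Lepr averaged 4.45 with no hCG, under the dim limit, 10.28 at 8 h and 9.35 at 16 h. For Btc they were the adhesion molecule genes Alcam, at 0.22, and Nrcam, at 0.25, and Alcam averaged 5.84, 11.09 and 10.36 in the same order. The closest to Epgn, Sprr2f and the metallothionein gene Mt2, lay farther off, at 0.38 and 0.39. Errfi1 was closely matched by Frmd5, at 0.09, with averages of 9.94, 13.11 and 11.92, and then by the AP-1 gene Fosl1, at 0.18. Egfr was nearest to the transcription factor gene Klf15, at 0.14, and to the tight junction gene Cgn, at 0.20. Hbegf was nearest to the tetraspanin gene Tspan33, at 0.09, and to BB557941, at 0.10. Tgfa was nearest to Pign and Trim56, at 0.08 each, and Erbb3 to the chemokine receptor gene Ackr3 and the integrin gene Itga1, at 0.12 each. Both genes nearest to Erbb3 rose at 16 h against 8 h, Ackr3 by 1.49 ± 0.28 and Itga1 by 1.39 ± 0.20, but the call of Ackr3 was lost without replicate 1 at 16 h (adjusted p = 0.0798). For genes with small changes, such as Tgfa, many profiles are similar, and the values are a description over 6 arrays.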

How the data were processed

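The authors deposited 1 log2 intensity for each probe set on each array. That the scale is log2 was judged by the range of the values. The sources used here do not give the software, background correction or normalization. No array dates were given, so no batch could be tested, and no detection calls were used, so the signal over background is unknown. The 2 arrays per group limit the precision.

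Each array was assigned to its group by its title. Of 45101 probe sets 64 controls were left out. The platform annotation gave 34945 probe sets 1 symbol, 932 several and 9160 none, and none was named from several symbols. Of those with 1 symbol, 34741 matched a current gene number. A group-means model of the 6 arrays was fitted by lmFit and eBayes of limma 3.58.1 under R 4.3.3. It had 3 residual degrees of freedom and 6.43 from the prior. P-values were two-sided and were adjusted over 27022 probe sets. The members, lists and tests were chosen with earlier results of these data known. Besides the 9 members, the named genes were, per list and comparison, up to 3 called genes with the largest change each way, and the 2 nearest profiles of each member called in any comparison. Genes without a probe set of their own name were not analysed here. Alternatives were quantile normalization, median centring, no dim filter or the 60th percentile, only the compared groups, a replicate block, a trended robust prior, probe set means, leaving out probe sets prone to cross-hybridisation, and leaving out each array.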

Additional observations from a re-analysis of the deposited data

How the results depend on the processing

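Among member changes under the listed alternatives, 377 kept their direction and side of the threshold, 17 lost a call, 9 gained one and 2 reversed. Both reversals were of Erbb3 at 8 h against no hCG, not called in the main analysis, with 0.01 without replicate 1 at 8 h and 0.15 without replicate 2 with no hCG, in a range of −0.62 to 0.15 over single arrays left out. With another probe set in place of the brightest, an alternative chosen after seeing the data, Tgfa 1421942_s_at gave −0.19 at 8 h against no hCG, −0.21 at 16 h against 8 h and −0.40 at 16 h against no hCG, and 1450421_at −0.16 at 16 h against 8 h. Egfr 1432647_at gave −0.02, 0.05 and 0.03, 1454313_at −0.01 at 8 h against no hCG and 1460420_a_at 0.07 at 16 h against no hCG. Leaving out an array, probe sets called ran from 6109 to 9450 at 8 h against no hCG, from 2518 to 6340 at 16 h against 8 h and from 7312 to 10345 at 16 h against no hCG. Without replicate 2 at 8 h the first was 6109. The second was 2648 and 2784 without replicates 1 and 2 at 16 h, and 2518 and 2819 without replicates 1 and 2 at 8 h. Members called ran from 6 to 7, from 4 to 7 and from 8 to 8. Pathway genes called ran from 13 to 21, from 4 to 16 and from 18 to 24. With 1 array left in a group its spread was assumed to be that of the others. The replicate numbers are shared by the groups. Deviations of same-numbered arrays correlated at 0.47 between no hCG and 8 h, 0.00 between no hCG and 16 h and 0.13 between 8 h and 16 h. The main fit did not take them as pairs, so deviations shared by no hCG and 8 h stay in its scatter. It called 9167 probe sets at 8 h against no hCG. With the replicate number as a block, 10117, 5812 and 11045 probe sets and 8, 6 and 8 members were called, and among members the block changed the call of Erbb2 at 8 h against no hCG alone (adjusted p = 0.0456). Changes from or to dim levels, such as those of Ereg, Epgn and Egf, are limited by an unknown background.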
